A study of Mus musculus with 106 samples.

Results

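H3K27ac, an acetyl mark carried by histone H3 at active promoters and enhancers, was compared between hematopoietic stem cell (HSC) preparations of diabetic and control mice by chromatin immunoprecipitation and sequencing (ChIP-seq). Of 106 samples in the series, 70 have a list of peaks, and the 12 used for this comparison are the H3K27ac lists of HSC from 6 diabetic and 6 control samples. All mice were C57BL/6J, 12 to 14 weeks old when assigned to the groups, and the control mice carried no induced diabetes. Diabetic mice had received streptozotocin, a toxin of insulin-producing cells, in 5 daily injections of 42 to 45 mg/kg, and marrow was taken 6 weeks after the last of them from animals whose nonfasted glucose exceeded 13.9 mmol/L. The HSC of the labels are marrow cells left after depletion of cells bearing CD3, CD4, B220, Ter119 or Gr1, so they are a progenitor-rich mixture and not a sorted stem cell. No cell of this comparison was stimulated or cultured as a macrophage. The statistics section of the study counts individual animals as replicates, while the labels tie no library to an animal, and p values measure the spread between libraries.

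Acetylation of lysine 27 is placed by CREBBP and EP300 and removed by histone deacetylases, and it marks regulatory DNA that is in use at the time the cells are fixed. In marrow progenitors, factors such as RUNX1, GATA2 and TAL1 occupy such regions and direct them towards stem, myeloid or erythroid programs. Lasting marks of this kind in progenitors are a proposed carrier of trained immunity, the heightened response of innate cells long after a stimulus has gone, and the comparison asks whether such marks differ in HSC of mice with sustained hyperglycemia.

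Peak lists hold no read counts, so the peaks of each library were ordered by their −log10 p and the top 30000 were kept. The strongest peak of a list has a percentile rank of 100, and a promoter or region without a peak among the 30000 has 0. A promoter is the DNA within 1000 bp of any start site of a protein-coding gene in GRCm38. Of 21938 protein-coding genes, 13620 had a promoter peak in at least 3 of the 12 libraries and were tested, and the other 8318 were not. Distal regions are merged peaks more than 1000 bp from every start site of the GENCODE M21 annotation, and 16879 of 54063 were held by at least 3 libraries. RefSeq genes were not used for this, so a distal region can lie on one. Differences are diabetic minus control in percentile points, with the SE and Benjamini-Hochberg adjusted p of limma. Promoters and regions were ordered, and counted at an unadjusted p under 0.05, by limma, while the p printed for a single one is from an exact two-sided permutation test over the libraries.

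The DNA under the differences described below is shown here for some of the named distal regions and promoters, including the Ezh2 to Pdia4 windows, Runx1 and Ifnar1, at which the groups overlapped. Each distal sequence is the 200 bases around the strongest summit (GRCm38, plus strand), and each promoter sequence is the 250 bases before the start site on the gene's strand, from RefSeq on GRCm38.p6. Capitals mark a Runx motif (TGTGGT or its reverse complement ACCACA) or an Ets motif (GGAAGT or ACTTCC). The Gata motif AGATAA, the Cebp motif TTGCNNAA and the AP-1 motif TGANTCA were also searched, and each motif was looked for on both strands.
Ezh2 to Pdia4 interval, chr6:47659498-47659697: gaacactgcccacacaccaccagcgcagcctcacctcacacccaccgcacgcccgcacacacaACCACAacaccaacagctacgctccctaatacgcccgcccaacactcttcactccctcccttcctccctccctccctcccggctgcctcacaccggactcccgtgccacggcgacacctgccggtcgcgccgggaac
Ezh2 to Pdia4 interval, chr6:47744309-47744508: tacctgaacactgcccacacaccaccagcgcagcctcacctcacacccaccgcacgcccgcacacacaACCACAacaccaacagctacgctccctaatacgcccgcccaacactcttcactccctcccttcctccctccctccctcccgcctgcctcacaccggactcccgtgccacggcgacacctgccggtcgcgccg
Ccdc88c intron, chr12:100978027-100978226: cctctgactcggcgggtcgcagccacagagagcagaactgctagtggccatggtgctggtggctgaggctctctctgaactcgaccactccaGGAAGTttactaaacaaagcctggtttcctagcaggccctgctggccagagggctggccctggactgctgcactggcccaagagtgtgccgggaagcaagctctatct
Tns4 intron, chr11:99082191-99082390: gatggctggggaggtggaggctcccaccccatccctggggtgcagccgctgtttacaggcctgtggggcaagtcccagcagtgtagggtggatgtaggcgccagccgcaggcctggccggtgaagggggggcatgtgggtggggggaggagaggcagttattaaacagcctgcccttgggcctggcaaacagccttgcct
Nkap intron, chrX:37130539-37130738: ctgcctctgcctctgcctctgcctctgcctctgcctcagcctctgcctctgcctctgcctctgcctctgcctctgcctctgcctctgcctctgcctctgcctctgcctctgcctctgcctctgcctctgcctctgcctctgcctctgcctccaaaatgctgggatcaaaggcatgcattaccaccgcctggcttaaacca
Region nearest Nup160, chr2:90631906-90632105: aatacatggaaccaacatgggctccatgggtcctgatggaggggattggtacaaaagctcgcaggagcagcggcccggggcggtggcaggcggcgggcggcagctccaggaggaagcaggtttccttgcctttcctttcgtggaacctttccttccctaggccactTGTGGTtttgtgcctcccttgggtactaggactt
Region nearest Ets1, chr9:32940405-32940604: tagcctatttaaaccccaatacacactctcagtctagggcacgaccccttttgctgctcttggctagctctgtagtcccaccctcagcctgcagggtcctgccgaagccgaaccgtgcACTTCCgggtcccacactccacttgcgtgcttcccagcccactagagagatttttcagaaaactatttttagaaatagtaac
Runx1 proximal promoter, chr16:92697330-92697579, minus strand: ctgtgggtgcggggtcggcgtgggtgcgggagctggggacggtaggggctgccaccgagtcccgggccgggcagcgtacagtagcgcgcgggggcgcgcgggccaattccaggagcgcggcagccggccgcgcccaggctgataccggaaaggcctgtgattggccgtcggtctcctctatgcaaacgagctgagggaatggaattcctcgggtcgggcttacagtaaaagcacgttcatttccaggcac
Ap3b1 promoter, chr13:94358710-94358959: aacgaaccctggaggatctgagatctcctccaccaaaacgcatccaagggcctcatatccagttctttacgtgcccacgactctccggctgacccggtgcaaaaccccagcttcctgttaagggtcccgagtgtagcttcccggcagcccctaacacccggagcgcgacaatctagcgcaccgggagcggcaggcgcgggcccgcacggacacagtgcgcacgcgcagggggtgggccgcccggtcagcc
Ifnar1 promoter, chr16:91484965-91485214: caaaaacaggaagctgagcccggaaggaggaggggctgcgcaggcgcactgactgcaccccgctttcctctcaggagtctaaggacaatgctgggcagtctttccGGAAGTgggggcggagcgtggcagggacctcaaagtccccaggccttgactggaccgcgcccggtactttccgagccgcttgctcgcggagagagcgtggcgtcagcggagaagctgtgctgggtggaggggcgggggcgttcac

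A Runx match was present in 14.0% of the 16879 distal windows of 200 bases, and an Ets match in 12.0%. Gata, AP-1 and Cebp matches were present in 4.04%, 4.73% and 4.11%. Among 32817 promoter windows of 300 bases the shares were 16.8% for Runx, 23.8% for Ets, 11.2% for Gata, 7.81% for AP-1 and 10.8% for Cebp. The Nkap window consists largely of a short repeated CT-rich unit, and the 2 windows of the Ezh2 to Pdia4 interval share 194 of 200 bases in a global alignment that allows gaps.

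Before any comparison of the groups, 5 libraries stood apart from the other 7 in the lineage genes they ranked highly. These were libraries 5 and 6 of the diabetic group and libraries 1, 4 and 5 of the control group. The first principal component of the promoter ranks held 36.0% of their variance and placed these 5 on 1 side. Erythroid genes, such as the globin, heme and red cell membrane genes, had a median percentile of 77.0 to 83.5 in the 5 libraries and 59.0 to 66.9 in the other 7. HSC and progenitor markers such as Kit, Cd34, Gata2 and Meis1 had medians of 40.0 to 59.5 and 64.3 to 71.2. In the H3K4me3 lists of the same labels, with 13000 peaks kept, the erythroid median was above 0 in diabetic 5 (8.44), diabetic 6 (18.7), control 1 (9.30) and control 6 (3.50) only. The progenitor markers did not separate the 5 libraries in H3K4me3. Their medians there were 38.75, 44.06, 32.24, 45.38 and 16.59. In the other 7 they were 0, 65.75, 70.73 and 63.28 (diabetic 1 to 4) and 24.70, 24.55 and 19.55 (control 2, 3 and 6). Values without the 5 libraries, or with the background rate as a covariate, stand beside many of the differences below. A difference given without them is not thereby stable.

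**Figure D1:**
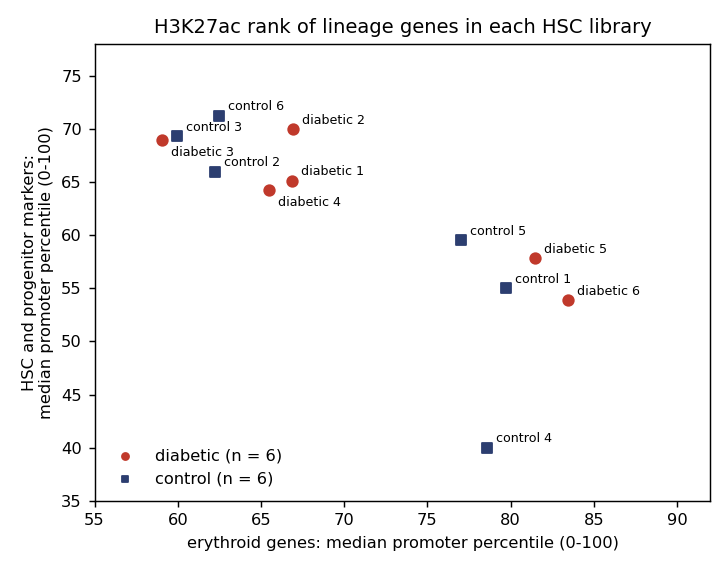
Each point is 1 HSC library, with the median promoter percentile of the erythroid genes on the x axis and that of HSC and progenitor markers on the y axis. Diabetic 5 and 6 and control 1, 4 and 5 lie at 77.0 or more on the x axis, and the other 7 at 66.9 or less.

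Many neutrophil granule genes and markers of macrophages and lymphocytes were at or near 0, but some ranked well. The depletion of lineage-committed cells covered erythroid cells, whose genes ranked far higher, as given above. Of 15 neutrophil granule genes, 12 macrophage markers and 12 T and NK cell markers, 6, 5 and 7 could be tested, and the median percentile was 0 for neutrophil and macrophage genes in each of the 12 libraries. S100a8, Mmp8, Ly6g, Adgre1, C1qa, Cd3e, Cd4 and Cd8a had no promoter peak among the top 30000 in any library. B cell markers reached a median of 11.7 in control 2 and 4.79 in control 4, with 0 in the other 10, and Vpreb1, which ranked high in all 12, shares its promoter peak with the neighboring gene Top3b and so cannot be read as a B cell marker here. Of the T and NK cell markers, 3 were held by all 12 libraries. Among these, Lck had medians of 69.2 in diabetic and 65.8 in control libraries, and Cd3d 62.3 and 70.0. The macrophage marker Cd14 had medians of 54.6 and 61.2, and the neutrophil granule gene Prtn3 68.9 and 59.3. HSC and progenitor markers were held in 5 to 8 of 8 genes per diabetic library and 6 to 8 per control library. In bulk chromatin, fewer cells of a type and less mark per cell cannot be told apart.

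The libraries themselves differed in size. Diabetic lists held 51162 to 130995 peaks (median 92673.5) and control lists 100045 to 139452 (median 130591). The ranges overlapped, and an exact two-sided permutation test gave p = 0.0346 (adjusted p = 0.152 over 10 library measures). Read totals are not in the lists, and a background rate recovered from the fold and p of weak peaks stood in for depth. It was 10.0 to 17.7 fragments per kb in diabetic libraries and 16.6 to 34.3 in control libraries, with exact permutation p = 0.00866 and adjusted p = 0.0866. Median width of distal peaks was 483±76.7 bp in diabetic and 567±39.6 bp in control libraries (mean±SD, n = 6 each; exact permutation p = 0.0455, adjusted p = 0.152). Background rate, list size and peak width differed in mean between the groups, and their part in the differences between ranks was tested only by using the background rate as a covariate. Rates of the groups overlapped little, so a difference with this covariate cannot tell the rate and the disease apart.

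Promoter occupancy at equal list length did not differ beyond the spread between libraries. A gain or loss of the mark shared by all peaks leaves such lists and ranks unchanged, so it could not be seen here. The paper reports a marked increase of H3K27ac coverage in diabetic HSC at promoters near chromatin more open in diabetic macrophages. It also describes diabetic and control HSC as clearly separable by ChIP-seq signal of this mark in variable regions. By Western blot it reports more H3K27ac in diabetic HSC. Coverage, signal in those variable regions and the total amount of the mark were not measured here. Diabetic libraries held the promoters of 11361, 12741.5 and 13226 genes (lowest, median and highest), and control libraries those of 11632, 12495.5 and 13052. The ranges overlapped, and the difference of 137.5 genes had an exact permutation p of 0.708. Promoter peaks made up 54.0±1.29% of the kept peaks in diabetic and 53.0±1.78% in control libraries (n = 6 each; exact permutation p = 0.277). Distal regions held numbered 8284.67±889 and 8675.17±269, a difference of −390.5 regions (n = 6 each; exact permutation p = 0.329). No library measure passed an adjusted p of 0.05. The smallest p that 6 against 6 libraries allow in this test is 0.00216.

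**Figure D2:**
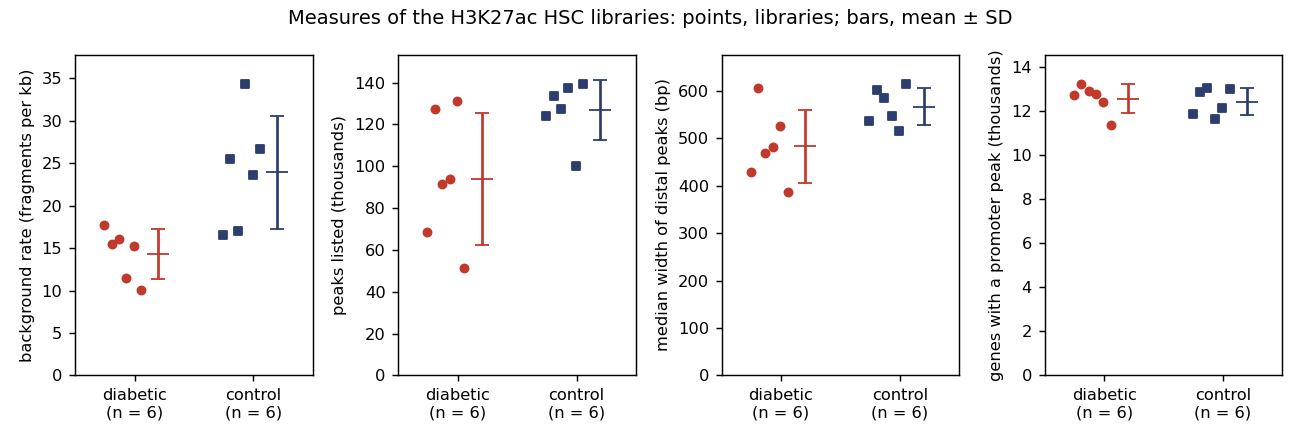
Background rate, number of peaks listed, median width of distal peaks and genes with a promoter peak are plotted on the y axes for each of 6 diabetic and 6 control libraries, with bars for mean±SD. The background rate of the control libraries spans 16.6 to 34.3 fragments per kb against 10.0 to 17.7, while the genes with a promoter peak overlap almost fully.

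No promoter passed an adjusted p of 0.05 between diabetic and control HSC. Of 13620 promoters tested with limma, 0 were called (0%), and 327 (2.40%) had an unadjusted p under 0.05, of which 184 (1.35%) were higher in diabetic HSC and 143 (1.05%) lower. An exact permutation test per promoter and Fisher's exact test on held against not held also called 0, where 367 and 1 promoters had unadjusted p values under 0.05. With a smallest p of 0.00216, either test could pass the adjustment only if about 590 promoters reached that smallest value, so these counts of 0 add little. The median difference over all promoters was 0.24 percentile points, and without the 5 libraries it was −0.04. The promoters named next were taken for their low p, and each had an adjusted p of 1, so their values describe these libraries and are not calls.

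Among promoters ranked higher in diabetic HSC, Slc7a8, a transporter of neutral amino acids, had the widest difference of those named here. Its percentiles were 12.2, 43.3 and 65.8 in the diabetic libraries and 0, 0 and 19.8 in the control libraries. All 6 diabetic libraries held a peak and only control 5 of the control group did, so the ranges overlapped through that library. The difference was 39.0±10.0 (SE, exact permutation p = 0.00433), and 41.1 without the 5 libraries. Fgf1, a fibroblast growth factor on chromosome 18, was held in 5 diabetic and 2 control libraries with medians of 50.3 and 0 (difference 36.9±10.3, and 41.8 without the 5 libraries). Nudt17, a Nudix hydrolase, was held in 5 and 2 libraries with medians of 38.9 and 0 (difference 32.1±9.28, and 34.3 without them). Diabetic 6 held neither of these 2 promoters.

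Promoters near the top of every list differed by less. The divergent pair Tyw5, a tRNA-modifying enzyme, and Maip1, a mitochondrial matrix protein, shares 1 promoter peak on chromosome 1. Its percentiles were 96.3, 98.0 and 99.6 in diabetic and 90.7, 93.7 and 96.1 in control libraries, with no overlap between groups. The difference was 4.07±1.17, 6.05 without the 5 libraries and 1.32 in those 5 alone. Tollip, which restrains Toll-like receptor signaling, had 95.2, 98.1 and 99.0 against 93.1, 93.9 and 95.4, and the groups overlapped through diabetic 3 and control 1. Sdhaf4, an assembly factor of succinate dehydrogenase, had 87.5, 92.1 and 97.2 against 77.4, 81.4 and 91.9, and the groups overlapped. Gpr146, a G protein-coupled receptor, had medians of 90.6 and 84.7 with overlap.

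Among promoters ranked lower in diabetic HSC, Snf8, a subunit of the endosomal sorting complex ESCRT-II, had the lowest p. Its percentiles were 80.9, 87.4 and 89.7 in diabetic and 91.4, 94.6 and 96.6 in control libraries. The groups did not overlap, and the difference was −8.02±1.78 (exact permutation p = 0.00216, adjusted p = 1), and −7.49 without the 5 libraries. Ap3b1, the beta subunit of the AP-3 adaptor that routes cargo to lysosomes, had 85.8, 88.1 and 90.1 against 91.0, 94.1 and 97.4. These groups did not overlap either, with a difference of −6.33±1.43 (exact permutation p = 0.00216), and −6.60 without the 5 libraries. Lamp2, a lysosomal membrane protein encoded on chromosome X, had 77.7, 82.4 and 84.8 against 85.8, 88.4 and 90.2, again without overlap. Its difference was −6.18±1.84, and −7.47 without the 5 libraries.

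Sin3a, the scaffold of a histone deacetylase complex, had 88.9, 91.0 and 94.0 in diabetic and 92.5, 96.3 and 99.1 in control libraries. The groups overlapped, and the difference was −4.95±1.39, and −5.81 without the 5 libraries. Foxp1, a forkhead transcription factor of lymphoid and myeloid cells, had medians of 91.5 and 97.2, and control 5 (92.9) lay apart from the other control libraries. Its difference of −4.90 was −7.17 without the 5 libraries and −1.31 in those 5 alone. Ifnar1, a chain of the type I interferon receptor, had 78.1, 89.1 and 94.1 against 93.5, 94.6 and 96.4, and diabetic 6 was the lowest library. Its difference was −6.37±2.11, −4.84 without the 5 libraries and −3.78 with the background rate as a covariate. Atxn7l3b, Ptpn12 (a tyrosine phosphatase), Rtn4 (a reticulon of the endoplasmic reticulum) and Gosr1 (a Golgi SNARE) had differences of −5.77, −4.33, −6.16 and −8.99, and in each the groups overlapped.

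**Figure D3:**
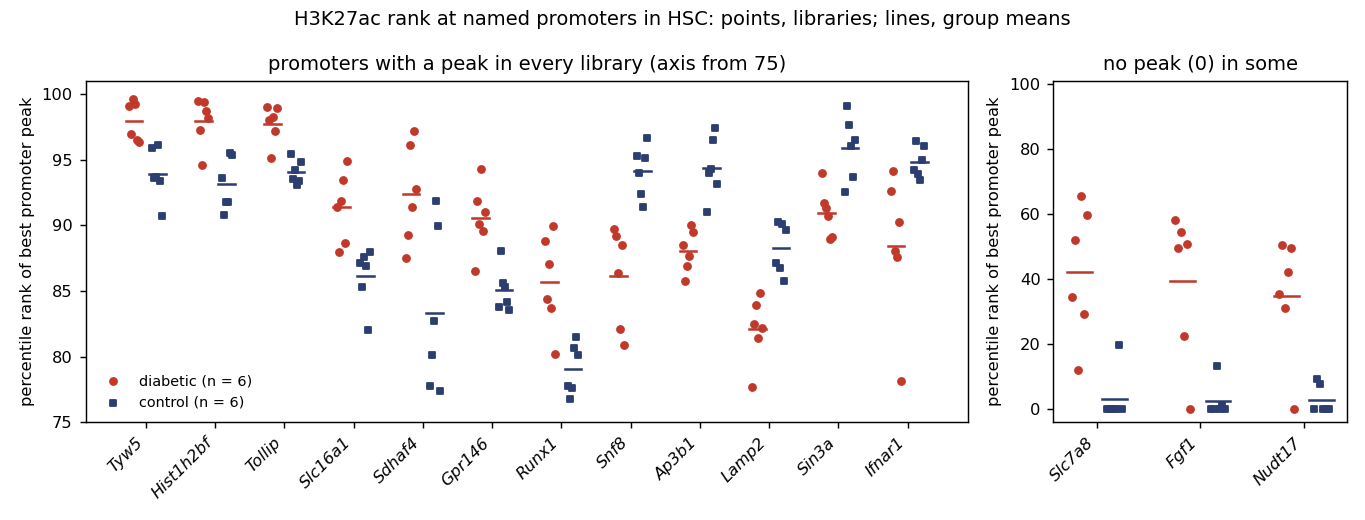
Percentile ranks of the best promoter peak are plotted for each of 6 diabetic and 6 control libraries, with a line at each group mean and a y axis that starts at 75 for the left panel. Tyw5, Slc16a1, Snf8, Ap3b1 and Lamp2 show no overlap between groups, and Slc7a8, Fgf1 and Nudt17 have no peak in most control libraries.

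Groups that did not overlap were rare. In 6 promoters (0.0441% of those tested) every diabetic library ranked above every control library, and in 4 (0.0294%) below. Random labels give such separation, in either direction, at a rate of at most 0.00216, the smallest p of the permutation test. The shares found here lie below that rate. These promoters were singled out after their values were seen. Beside Tyw5 with Maip1 and Slc16a1, a lactate transporter, the higher ones were Cntrl, a centriole protein (97.2 against 93.6 in median), Tusc1 (94.1 against 91.8) and Snrnp48, a spliceosome protein (87.4 against 83.2). Beside Snf8, Ap3b1 and Lamp2, the lower one was Psmb6, a proteasome subunit (60.6 against 69.1). No promoter was held by all libraries of 1 group and none of the other (0% in each direction).

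Runx1, a master regulator of blood stem cells and one of the genes the study followed, was held by all 12 libraries. Percentiles of its best promoter peak were 80.2, 85.7 and 90.0 in diabetic and 76.8, 78.9 and 81.5 in control libraries. Only diabetic 6 lay inside the control range. The difference was 6.62±2.23 (exact permutation p = 0.00649, adjusted p = 1), 7.84 without the 5 libraries and 9.49 with the background rate as a covariate. The values belong to the proximal start site printed above. At the distal start site, on chr16:92826025-92826324, percentiles were 52.1, 67.9 and 70.7 in diabetic and 64.0, 70.2 and 76.0 in control libraries, and the groups overlapped. Its proximal promoter window held no match to the 5 motifs.

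**Figure D4:**
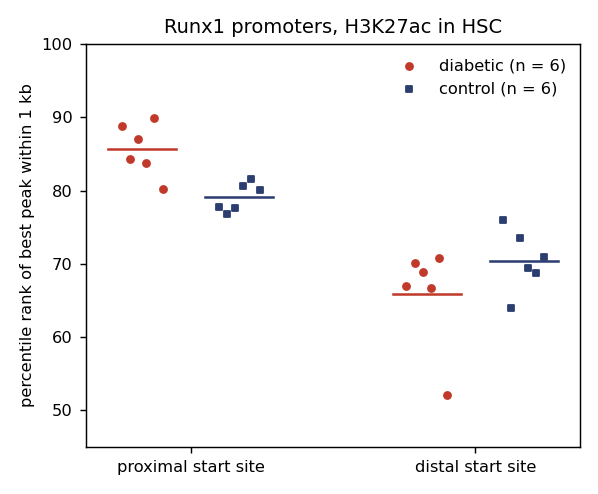
Percentile rank of the best peak within 1 kb is plotted on the y axis for both Runx1 start sites in 6 diabetic and 6 control libraries, with a line at each group mean. The diabetic libraries lie at 80.2 to 90.0 and the control libraries at 76.8 to 81.5 at the proximal start site, and the groups overlap at the distal one.

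Other genes tied to the study overlapped between groups. The paper names Il6, Il1b, Tnf, Nos2 and Hk1, and names PU.1 (Spi1) and CTCF by their motifs. Slc2a1 and Txnip are not named there and were added here. Il6 and Il1b, the inflammatory cytokines, were each held by 1 diabetic and 1 control library and were not tested. Tnf had medians of 21.2 and 21.5, and Nos2, the inducible nitric oxide synthase, 12.9 and 0. Their differences were −5.84 and −0.03 with all libraries, and −16.0 and −8.60 without the 5. Slc2a1, the main glucose transporter of blood cells, had 7.19, 79.9 and 81.2 in diabetic and 60.1, 74.9 and 80.1 in control libraries, with diabetic 6 far below the rest. The difference was −8.47±10.2 with all libraries and 1.92 without the 5. Hk1, a hexokinase, had medians of 82.5 and 81.3. Spi1, which encodes the myeloid factor PU.1, had 77.9 and 79.6 (difference −2.02, and 6.43 with the background rate as a covariate), Ctcf, a genome insulator, 97.2 and 98.3, and Txnip, a glucose-responsive inhibitor of thioredoxin, 74.0 and 77.9 (difference −0.76, and 3.97 with that covariate).

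Stem and progenitor genes were split between both directions. Of 20 stem cell transcription factors, all tested, 0 were called, 11 were higher in diabetic HSC in mean and 9 lower, with a median difference of 0.64 beside 0.24 over all promoters. Runx1 was the single member with an unadjusted p under 0.05. Meis1 differed by 13.7±8.37, and by 4.28 without the 5 libraries. Gata2 differed by 7.71±5.56, but by −0.69 without the 5 libraries and −2.98 with the background rate as a covariate. Control 1 and control 4 were the lowest libraries in both genes. Of 20 surface genes 16 were tested, with 10 higher and 6 lower. Flt3, a cytokine receptor of progenitors, differed by −5.12±5.26, and by −9.28 with the background rate as a covariate. Tek and Il7r had no promoter peak in any library.

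Myeloid and erythroid genes were also split between directions. Of 16 myeloid transcription factors, all tested, 9 were higher and 7 lower, with 0 at an unadjusted p under 0.05. Cebpb differed by 4.45±2.14 (exact permutation p = 0.0801), by 2.14 without the 5 libraries and by 1.13 with the background rate as a covariate. Cebpa, the driver of granulocyte and macrophage fate and named after its values were seen, differed by 13.8±7.19 (exact permutation p = 0.106). Cebpa had 61.8, 70.9 and 74.3 in diabetic and 35.5, 57.0 and 73.3 in control libraries. Its lowest 3 libraries were control 1, 4 and 5, which are on the erythroid side, and diabetic 5 and 6 from that side were the lowest of the diabetic group. Of 19 erythroid genes tested, 10 were higher and 9 lower with a median difference of 0.02, and the libraries with high erythroid ranks were 2 diabetic and 3 control ones. In that list 13 of 20 genes had a peak in all 12 libraries.

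Many inflammatory genes had no promoter peak in most libraries of either group. Of 20 cytokines and mediators 11 were tested (6 higher, 5 lower, median 0.11), and of 20 chemokines and receptors 11 (6 higher, 5 lower, median 0.33), with 0 at an unadjusted p under 0.05 in either. Ccl2, Ccl5, Cxcl9, Cxcl10, Ccr1 and Ccr2 had no promoter peak in any library. Toll-like receptor and NF-kB genes were well marked, with library medians of 80.3 to 86.8. Of 27 tested, 8 were higher and 19 lower in diabetic HSC with a median difference of −1.60, and 0 had an unadjusted p under 0.05. Nfkbiz (−2.49±1.35) and Irak1 (−3.53±2.23) had the lowest p of this list, and Irak1 differed by −0.56 with the background rate as a covariate. Of 25 interferon response genes, 12 were higher and 13 lower, and Ifnar1 was the single member at an unadjusted p under 0.05.

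Metabolic genes were spread around the median of all promoters. Of 27 glycolysis and glucose uptake genes, 14 were higher and 13 lower with a median difference of 0.17. Slc16a1, the lactate and pyruvate transporter, had 88.0, 91.7 and 94.9 in diabetic and 82.0, 87.0 and 88.0 in control libraries. The groups did not overlap, by a narrow margin between diabetic 2 (87.99) and control 6 (87.97), and the difference was 5.23±1.67 (exact permutation p = 0.00216, adjusted p = 1). Of 20 mevalonate and cholesterol genes, 8 were higher and 12 lower, with Insig1, a brake on sterol synthesis, at −4.63±1.74 (exact permutation p = 0.00433). Of 20 insulin and IGF signaling genes, 14 were higher and 6 lower, and Insr, the insulin receptor, differed by −5.18±2.12 (exact permutation p = 0.0455) with 80.7, 84.3 and 90.0 against 85.5, 89.6 and 95.2. Without the 5 libraries Insig1 differed by −6.81 and Insr by −7.58, and in those 5 alone by −1.24 and −0.96. Of 18 oxidative stress genes, 9 were higher and 9 lower with 0 at an unadjusted p under 0.05.

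Enzymes that write and remove the mark were held by every library. Of 30 histone acetylation and H3K4 methylation enzymes, 14 were higher and 16 lower with a median difference of −0.08. Crebbp, an H3K27 acetyltransferase, differed by 4.66±2.14 (exact permutation p = 0.0541) with medians of 89.6 and 83.5 and diabetic 5 below all control libraries, and by 2.69 with the background rate as a covariate. Kmt2d, an H3K4 methyltransferase of enhancers, differed by −3.48±1.64 (exact permutation p = 0.0693), and by −5.60 with that covariate. Of 29 cell cycle genes 18 were higher and 11 lower, with Ccne2, cyclin E2, at 4.85±2.00 (exact permutation p = 0.0411). The Ccne2 difference was 1.19 without the 5 libraries, 9.77 in those 5 alone and 1.07 with the background rate as a covariate. Of the megakaryocyte, B cell, T and NK cell, macrophage and neutrophil lists, 0 genes had an unadjusted p under 0.05. Of 10 stroma and endothelium markers 5 were tested, with 3 higher, 2 lower and a median difference of 1.13. Pecam1, from that list, differed by −23.6±9.17 (exact permutation p = 0.0108), by −15.6 without the 5 libraries and by −7.02 with the background rate as a covariate. Eif2s3y on chromosome Y differed by −23.9±10.1 (exact permutation p = 0.0281), while the other 3 tested genes of the sex-linked list were higher in mean (Ddx3y 7.72±10.8).

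Histone genes, a group noticed after their values were seen, had mostly higher means in diabetic HSC. Of 66 tested, 55 (83.3%) had a higher mean in diabetic libraries beside 53.7% of all promoters, and the median difference was 1.31. At an unadjusted p under 0.05, 6 were higher and 0 lower, where the shares over all promoters are 1.35% and 1.05%. Library medians of the group were 92.6, 95.1 and 98.0 in diabetic and 91.1, 93.7 and 97.2 in control libraries, and the ranges overlapped. Many of these genes are neighbors or near-identical copies and share a peak: with 1 gene per shared profile, 40 of 49 were higher, 4 of them at an unadjusted p under 0.05. Reads of such copies could have been split by the alignment, so single members are uncertain. Hist1h2bf and Hist1h2ad, a pair with 1 peak, had 94.6, 98.5 and 99.5 in diabetic and 90.8, 92.7 and 95.5 in control libraries, with a difference of 4.79±1.23 (exact permutation p = 0.00649, adjusted p = 1). The median of the group was 1.25 without the 5 libraries and 1.31 with the background rate as a covariate, where 40 of 66 were higher.

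No distal region passed an adjusted p of 0.05 either. Of 16879 regions 0 were called by limma (0%), and 297 (1.76%) had an unadjusted p under 0.05, 108 (0.640%) higher and 189 (1.12%) lower in diabetic HSC. The exact permutation test and Fisher's exact test also called 0, where 280 and 47 regions had unadjusted p values under 0.05, and about 731 regions at the smallest p would be needed for a call. Ranks of distal regions were less alike between libraries than those of promoters, as Spearman's rho between pairs of libraries had a median of 0.339 between the disease groups, against 0.905 at promoters. Every named distal region had an adjusted p of 1.

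The regions ranked higher in diabetic HSC with the lowest p lay mostly in 1 place, on chromosome 6 between Ezh2, a histone methyltransferase gene, and Pdia4. This interval, chr6:47595342-47796140, holds the RefSeq genes Rn4.5s, Rny3 and Rny1 for small RNAs and several predicted genes. Some of its tested regions lie on these genes: Rn4.5s (chr6:47654921-47655094) is inside chr6:47654454-47656444. It holds 18 tested regions over 127.2 kb, a median of 4.33 kb apart with 1 gap of 54.5 kb, and they were singled out after their values were seen. All 18 had a higher mean in diabetic libraries, 14 had an unadjusted p under 0.05 (beside 0.640% of all regions in that direction), and the median difference was 6.01. By the exact permutation test, however, 0 of the 18 had p under 0.05, with a range of 0.0519 to 0.396. At chr6:47659073-47660764, with the lowest p, percentiles were 86.1, 94.1 and 96.0 in diabetic and 74.1, 81.9 and 97.4 in control libraries, and the groups overlapped (difference 8.06±2.30, exact permutation p = 0.0519, adjusted p = 1). Control 1 was the highest of all libraries in 16 of the 18 regions, and control 4 the lowest in 17.

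The 18 regions are not independent of each other. Summit windows of the 4 with the lowest p were 84.0% to 97.0% identical, so a 50 bp read may align at several of them, and each of these 4 windows held 1 Runx match in the shared sequence. In 16 of the regions, 85.6% to 100% of the 50-base words occurred more than once within the interval, and in the outermost 2 regions 38.8% and 32.5%. Without the 5 libraries the median difference was 4.68 over 17 regions tested. With the background rate as a covariate it became −4.90, with 1 of 18 higher in diabetic HSC, so the direction of this group depends on that covariate. Control 4, the lowest library in 17 of these regions, also had the highest background rate (34.3 fragments per kb). Rate and disease cannot be told apart here.

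Elsewhere, 2 regions were held by all 6 diabetic and none of the control libraries (0.0118%), and none by all control and no diabetic libraries (0%). The region in an intron of Tns4, which encodes a focal adhesion tensin, had 13.4, 33.7 and 64.3 in diabetic libraries. The region in an intron of Nkap, an NF-kB activating protein gene on chromosome X, had 13.1, 30.3 and 61.8. All control libraries were at 0 in both, which means no peak among the top 30000 and not absence of the mark. In lists as deposited the regions of this kind, 34, were all held by control libraries alone. In lists cut at 20000 or 10000 peaks, no region was held by all libraries of 1 group and none of the other, and in the Nkap region 28.5% of 50-base words were repeated in the surrounding sequence. A region 1685 bp from Tab1, a kinase adaptor gene, had 38.4, 57.2 and 67.7 against 0, 5.14 and 49.8 (difference 37.4, and 20.6 with the background rate as a covariate), and a region 4138 bp from Ccdc73 medians of 46.3 and 0.

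Regions ranked lower in diabetic HSC were single sites spread over the genome. The Ccdc88c intronic region, chr12:100977717-100978617, had 0, 0 and 20.9 in diabetic and 30.8, 47.1 and 68.9 in control libraries. The groups did not overlap, and the difference was −43.9±14.5 (exact permutation p = 0.00216, adjusted p = 1), and −39.2 without the 5 libraries. Its window holds 1 Ets match. A region in an intron of Sox13, a transcription factor gene, had 0, 72.4 and 76.9 against 71.0, 78.2 and 84.2, and diabetic 6 alone held no peak. Its difference of −17.0 was −8.49 without the 5 libraries and −5.95 with the background rate as a covariate. A region 44522 bp from Nup160 had medians of 12.5 and 63.2, and a region 243714 bp from Ets1, a lymphoid transcription factor gene, 2.84 and 56.4. Introns of Zmiz1, a transcriptional coregulator, and Elk4, an Ets factor, held regions with medians of 26.9 and 58.0 and of 40.7 and 62.7, and in each of these the groups overlapped.

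**Figure D5:**
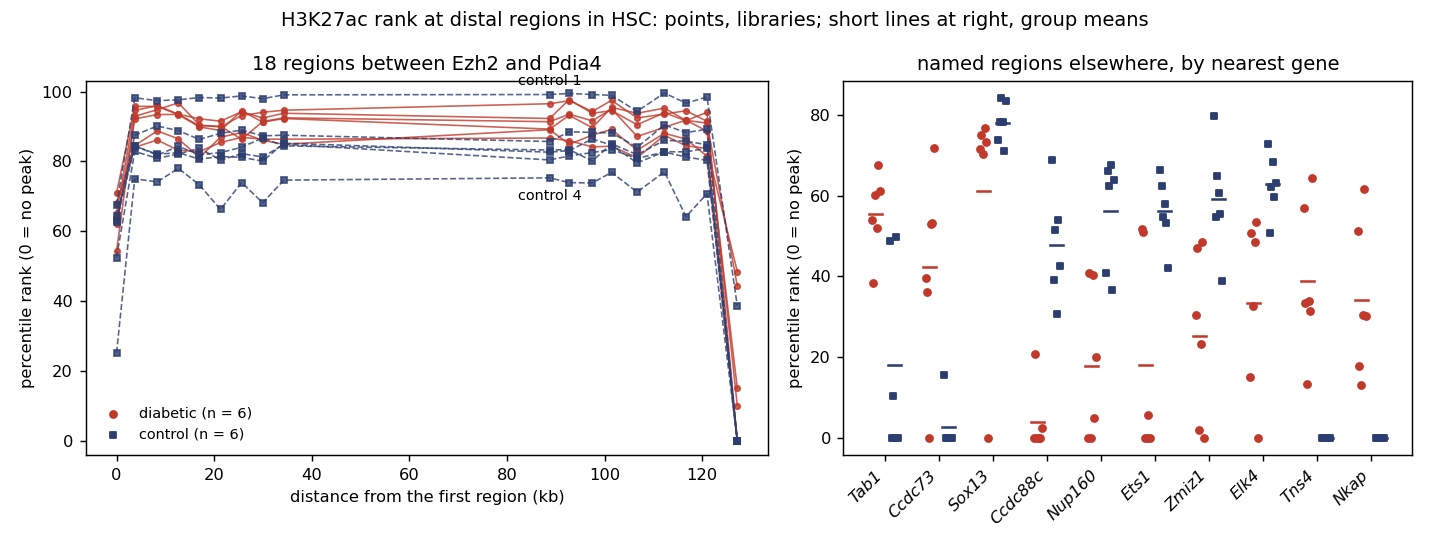
Left, percentile rank against distance in kb from the first of 18 regions between Ezh2 and Pdia4, with 1 line per library (solid diabetic, dashed control); control 1 lies above and control 4 below nearly all others. Right, percentile ranks of the named regions on other chromosomes by nearest gene in 6 diabetic and 6 control libraries, with a line at each group mean; Ccdc88c, Tns4 and Nkap do not overlap.

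Groups did not overlap in 3 distal regions higher (0.0178%) and 4 lower (0.0237%) in diabetic HSC. As at promoters, these shares lie below the rate of 0.00216 that random labels give at most. Beside the Tns4 and Nkap regions, the higher one was chr11:75965362-75967420, nearest to Rph3al, with 77.1, 80.0 and 84.6 in diabetic and 71.3, 72.1 and 76.2 in control libraries. Beside the Ccdc88c region, the lower ones were chr3:95667792-95670025 nearest to Adamtsl4 (medians 37.6 and 58.1), chr5:23894337-23895110 nearest to Fam126a (0 and 32.5) and chr14:16448543-16449077 nearest to Top2b (0 and 42.3). These were also named after their values were seen.

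Other readouts of the same promoters are set beside these values without a test of likeness. In H3K4me3 lists of HSC, a mark of active promoters, Runx1 had group means of 69.4 in diabetic and 56.8 in control libraries, Snf8 49.8 and 77.0, Ap3b1 79.2 and 67.5, and Lamp2 9.24 and 40.4. The Ap3b1 medians were 82.3 and 82.2, with the lowest control library at 6.21. Lamp2 was held in 3 diabetic and 4 control libraries of that mark. In H3K27ac lists of unstimulated bone marrow-derived macrophages (BMDM) from 5 diabetic and 6 control samples, grown for 7 days at normal glucose, Runx1 had 92.2 and 90.7, Snf8 82.0 and 85.5, Ap3b1 88.9 and 95.3, and Slc7a8 55.2 and 42.9. Among 14399 promoters, 0 (0%) differed in their disease difference between HSC and BMDM at an adjusted p under 0.05 by limma, and 471 had an unadjusted p under 0.05. For Runx1 the HSC difference minus the BMDM difference was 5.15±3.07 (adjusted p = 0.999).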

How the data were processed

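ChIP-seq of H3K27ac used an antibody from abcam (ab4729), and libraries were sequenced as 50 bp single reads. The submitters' processing notes name Trim Galore 0.3.3, cutadapt 1.8, FastQC 0.11.3, Bowtie2 2.2.6, Picard 2.19.2 and 2.18.14, bedtools 2.19.1, MACS2 2.2.7.1 and the builds GRCm38 and mm10. The authors called peaks per sample against the input of the same cells, as peak names state. The deposited lists give a fold enrichment (a ratio), a −log10 p, a −log10 q and a whole-number score per summit, and the fold and −log10 p were used here. No read totals are given, so depth and counting intervals are unknown.

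Summits of 1 interval were joined into 1 peak with its highest −log10 p. All 1325510 peaks of the 12 lists lay inside the 21 GRCm38 chromosomes. Start sites (93513 of 21938 protein-coding genes) came from GENCODE M21. Percentile ranks were fitted with limma 3.58.1 (intensity trend; R 4.3.3) on 6 against 6 libraries without covariates, with Benjamini-Hochberg adjustment over all features and a threshold of 0.05. Library measures were compared by exact two-sided permutation (SciPy 1.17.1, Python 3.11.15). The background rate was solved in each library from the fold and p of weak peaks (6000 at most, −log10 p no higher than 8), with p taken as a Poisson tail. H3K4me3 lists were cut to 13000 peaks. Interval overlaps, the background rate solution and the limma fit of promoters were tested on simulated data, and the other steps were not. The values simulated for limma had a normal spread and no floor at 0.

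Samples were grouped as labelled and none was dropped. Named features are the 10 promoters and 6 distal regions with the lowest p in each direction and those held by 1 whole group alone. Genes tied to the study, with Slc2a1 and Txnip added, were named too. From 21 gene lists the 2 members with the lowest p in each direction were taken. The members and lists were chosen with earlier results of these data known. Alternatives were list length, ranking value, scale, test, filter, promoter window, replicate block, background rate and each library left out.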

Additional observations from a re-analysis of the deposited data

Results flagged for a closer look

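Among all groups of 6 libraries examined (104) 8 held a library whose gap to its nearest neighbor, as a share of the range of the group, exceeded the critical value of Dixon. For independent, normally distributed values chance gives about 1 in 20 such groups. That rate does not hold here, as many values have a floor at 0 and many features were taken for low p. A group with a single library above 0 is always flagged. In the control group, library 4 had the highest share of intergenic peaks (16.87%), library 5 the highest rank at the Slc7a8 promoter (19.8, with the other 5 at 0) and the lowest at the Foxp1 promoter (92.9), library 3 the highest at the Fgf1 promoter (13.47), and library 1 the highest at chr2:105021259-105022050 near Ccdc73 (15.55, with the other 5 at 0). In the diabetic group, library 6 was the lowest at the Slc2a1 promoter (7.19) and at chr1:133417138-133418925 in Sox13 (0), and library 2 the highest at chr12:100977717-100978617 in Ccdc88c (20.86). Diabetic 6 had the shortest list, with 51162 peaks, and the lowest background rate, with 10.0 fragments per kb. The part of these in the ranks of that library was not tested beyond the alternatives without it.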

How the results depend on the processing

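Promoter, distal and HSC against BMDM calls stayed at 0 under every alternative run. The lowest adjusted p was 0.516 for promoters (lists as deposited), 0.112 for distal regions (without control 1) and 0.469 for the HSC against BMDM difference. Promoters at an unadjusted p under 0.05 numbered 327, and 1014 in lists as deposited (997 of them lower), 502 ranked by fold, 634 and 618 with the first component or the erythroid median as a covariate and 565 without the 5 libraries. Distal regions numbered 297, and 5413 in lists as deposited (5199 lower), 20, 136 and 507 in the top 10000, 20000 and 40000, 535 without a trend, 499 with the background rate as a covariate, 527 and 494 with the other covariates and 172 in the 5 libraries alone. The settings with the first component, the erythroid median or the 5 libraries were chosen after seeing the data. Held by 1 whole group alone were 0 promoters (1 in lists as deposited, 0 to 1 with a library left out, 1 without control 5) and 2 distal regions (0 in the top 10000 and the top 20000, 34 as deposited and 1 by fold, 2 to 9 with a library left out). The 2 were held by diabetic libraries alone, while the 34 and the 1 were held by control libraries alone.

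The difference in genes with a held promoter, 137.5, reversed to −519.0 in lists as deposited and −74.58 without the 5 libraries, and spanned −20.03 (without control 4) to 376.7 with a library left out. The difference in percent of peaks at promoters passed the threshold at 5.707 in lists as deposited (exact permutation p = 0.013) and spanned 0.462 to 1.407 with a library left out. The difference in distal consensus regions held spanned −665.8 (without diabetic 2, exact permutation p = 0.0216) to −158.0. Library measures past an adjusted p of 0.05 numbered 0, 7 in lists as deposited and 0 to 5 with a library left out (5 without diabetic 2, 1 without control 1 or 3). Of the 34 features named for their low p or for being held by 1 whole group, 1011 of 1015 values under the alternatives kept their direction, and 4 reversed with the background rate as a covariate: chr6:47659073-47660764 (−2.435), chr6:47743497-47745634 (−4.616), chr6:47752179-47754593 (−2.733) and chr6:47767416-47768850 (−6.723). The 34 were chosen from these same lists for low p or whole-group holding, so a kept direction was largely fixed by that choice. Pairs with 1 shared peak are also counted as 2 features. Over all 125 named features, study genes and list members included, 27 changed direction with the background rate as a covariate, 17 of 119 without the 5 libraries and 6 of 105 in those 5 alone. The cause was not tested.

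Replicate numbers are shared between the groups, but same-numbered libraries did not deviate together (r of −0.385 to 0.255 at promoters, −0.159 to 0.202 at distal regions), and only number 5 correlated best with its own. With the replicate block 0 features were called, with 284 promoters and 343 distal regions at an unadjusted p under 0.05, and the block left 0 library measures past the threshold.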
